A study of Macaca mulatta with 30 samples.

Results

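Microexons are exons so short that they add only a few amino acids to a protein. In neurons many of them are switched on by the splicing factor SRRM4 and kept out elsewhere by PTBP1, and they often sit in proteins of synapses, axon guidance, vesicle traffic and the cytoskeleton. Most keep the reading frame, so a transcript with the microexon and one without it both code for a full protein. Described here are the annotated exons of 3 to 27 bases in the prefrontal cortex of male rhesus macaques that drank ethanol by choice. They were chosen by length alone, as end minus start plus 1, in genes with 3 or more exons and a gene value of 100 or more in at least 6 libraries. The rule found 377 exons in 329 genes, out of 115011 exons in 9102 genes that met the same gene conditions. The whole table held 156345 exons, and 561 of those had 3 to 27 bases. No measured difference between animals entered the choice.

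The tissue was cortical area 32, a medial prefrontal area, from 30 animals with 1 RNA library each. All 30 were offered 4% (w/v) ethanol beside water for 22 hours a day over more than 12 months, and none was an ethanol-naive control. The labels sort them by intake. Low drinkers (LD, n = 10) met none of the other definitions. Binge drinkers (BD, n = 7) took at least 2 g/kg on at least 55% of days and reached 80 mg/dl of blood ethanol at least yearly. Heavy drinkers (HD, n = 7) took at least 3 g/kg on at least 20% of days. Very heavy drinkers (VHD, n = 6) averaged over 3 g/kg a day and passed 4 g/kg on at least 10% of days. There were 9 animals of cohort 4, 8 of cohort 5, 8 of cohort 7a and 5 of cohort 7b, with labelled mean ages at the end of drinking of 9.98, 7.15, 5.7 and 7.18 years in that order. Category and cohort were unevenly crossed: cohort 4 held 4 LD and no VHD animals, and cohort 5 held 4 VHD and no LD animals. LD and VHD animals occurred together only in cohort 7a, with 3 LD and 2 VHD.

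Each library held 4392296 to 13985136 reads assigned to genes. Microexons drew 0.0961 to 0.115% of them, and 328 to 360 of the 377 had at least 1 read in a given library. Summed markers of neurons (44124 to 57247) and astrocytes (77219 to 102900) were high in every library, those of liver (ALB and APOA1) were 8.49 or lower, and those of the choroid plexus (TTR and FOLR1) 1.48 to 35.98. The muscle genes ACTA1 and MYH7 summed to 140.4 to 312. Oligodendrocyte markers, a sign of white matter in the dissection, varied from 3224 to 18645. Fewer cells of a type and less RNA per cell cannot be told apart in such samples.

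A pair of measures describes a microexon below. Its share is the exon value as a percent of the gene value in the same library, and its ratio to neighbours is the exon value as a percent of the mean of the exons on both sides. The authors scaled the exon and gene tables separately, and the ratio of the scales was 0.968 to 1.04 across libraries. Of the 377 microexons, 309 in 269 genes reached a value of 5 in at least 6 libraries and were tested. The other 68 had median values of 0 to 3.10, with 31 of them first or last in their gene. A total of 279 tested microexons lay inside their gene and 30 were its first or last exon. Since the tested ones had to reach a set level, they do not stand for the silent ones.

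Most microexons had a length that keeps the reading frame. Among internal exons, 196 of 316 microexons (62.0%) had a length divisible by 3, against 38.6% at 28 to 50 bases and 40.1% at 51 to 100 bases. These lengths count both end bases, and the files do not say whether starts count from 0 or 1. If starts count from 0, each length is 1 base shorter and the frame-keeping exons are those that leave a remainder of 1 here. Those were 47 microexons (14.9%), against 30.4% of internal exons over 27 bases, where 39.6% left no remainder. Exons of 27 bases (96) and 24 bases (63) were the most frequent, followed by the frame-shifting lengths of 26 (43) and 25 bases (40). The first and last exons among them were nearer to the other classes, with 50.8% divisible by 3. Most genes held 1 microexon (294 genes), 26 held 2, 5 held 3 and 4 held 4. PTPRD, PRKACB and ERMAP were among the genes with 4, and all 4 microexons of ERMAP were too low to test. The median gaps to the neighbouring exons were 1388 and 1615 bases on the lower and higher coordinate side, against 1636 bases over all exons.

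Shorter exons had lower levels against their neighbours. The median ratio was 50.0% for the 279 internal tested microexons, 64.7% at 28 to 50 bases, 79.4% at 51 to 100 bases and 100.8% above 100 and up to 200 bases. A ratio under 25% was found for 50 microexons (17.9%), against 10.3% of exons of 28 to 50 bases and 4.01% of those above 100 and up to 200 bases. Frame-keeping internal microexons had a median ratio of 47.4% (171 tested), and the others 54.4% (108 tested). These are values per exon, not per base. A short exon that catches fewer reads and an exon left out of more transcripts cannot be told apart in them. No break in level was seen at the length limit: the median ratios were 52.4% at 26 bases, 55.6% at 27, 54.5% at 28 and 56.4% at 29.

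**Figure D1:**
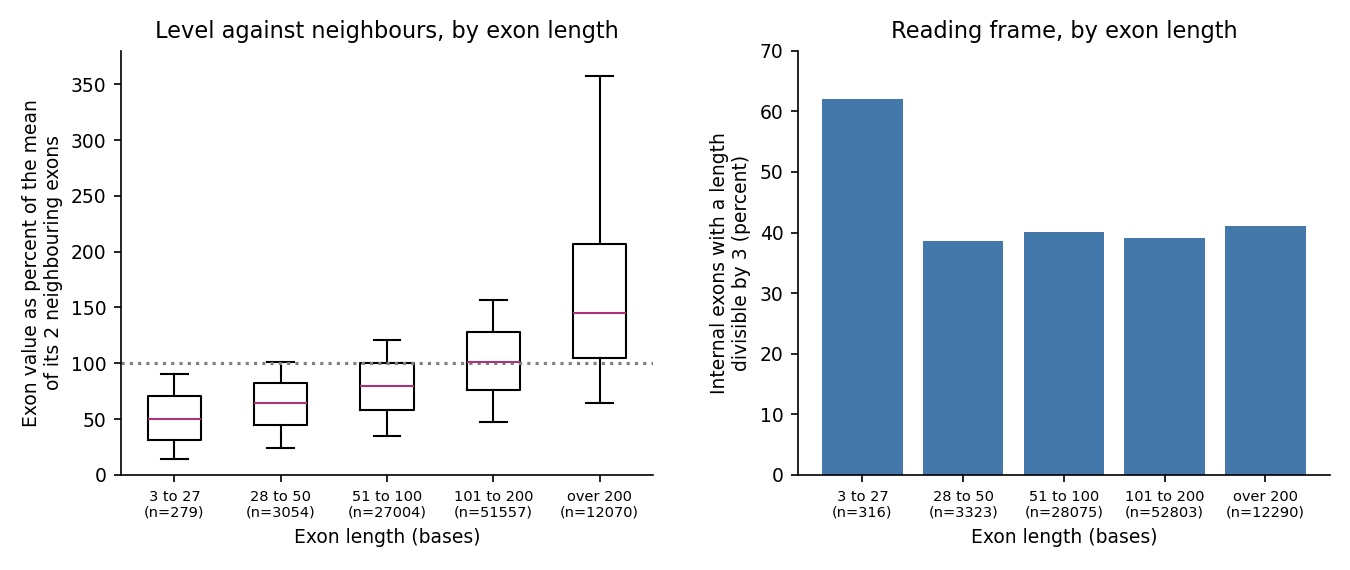
Left, the exon value as a percent of the mean of its neighbours for tested internal exons of 5 length classes; boxes span the middle of each class with the median as a coloured line, whiskers run from the 10th to the 90th percentile, and the dotted line marks 100%. Right, the percent of internal exons with a length divisible by 3. Microexons have the lowest median ratio (50.0%) and the highest frame-keeping percent (62.0%).

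Single microexons spread widely around this median. The highest ratio, 294%, belonged to an 18-base exon of SLC8A1, the sodium-calcium exchanger (chr2a:40760228-40760245). Its share ran from 0.134 to 1.57% with a median of 1.13%. Its neighbours are themselves microexons of 15 and 21 bases, at median shares of 0.136 and 0.609%. PRKACB, a catalytic subunit of protein kinase A, held a cluster of 4 short exons of 10, 24, 24 and 9 bases in a row. Their median shares were 0.273, 1.09, 1.44 and 0.516%, so the 24-base exons stood above the flanking 9- and 10-base ones. Other high ratios came from a 15-base exon of TNNT2, troponin T (154%), and a 27-base exon of SFXN5 (148%). The 23-base exon of RPL41, which encodes a very small ribosomal protein, carried 43.4% of its gene's value. RPL13 followed with a 12-base exon at 17.3%. At the low end stood exons of PTPRA (ratio 4.29%), MAPK8IP3 (4.78%), TNS3 (5.10%), PALM2 (5.28%) and TRIM27 (6.20%). TNS3 and PALM2 have a neighbour of several kilobases, which lowers this ratio. The shortest microexon was 8 bases long, in PITPNB, a phosphatidylinositol transfer protein (chr15:69644847-69644854). It was well covered, at a share of 1.74 to 4.03% (median 2.57%) and a ratio of 71.6%.

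A list of 141 symbols of genes known to carry brain microexons was drawn up by role, with some genes under both an old and a new name. Of these, 108 were measured and met the gene conditions, and 26 held an annotated exon of 3 to 27 bases. They contributed 38 microexons, 34 with a length divisible by 3, and 36 were tested. The 9-base exon of ROBO1 and the 27-base exon of TENM4 were too low. The median ratio to neighbours was 38.7% for the listed microexons and 52.4% for those of other genes. By role it was 29.4% for adhesion and guidance (13 tested), 30.2% for nuclear and RNA-binding proteins (6), 58.9% for cytoskeleton and motors (8) and 63.7% for kinases, scaffolds and GTPase regulators (8). PICALM held the only tested member among the listed vesicle genes, and none of the 6 listed channel and pump genes that were measured held one. Channel genes outside the list did, such as KCNQ3 and KCNQ5 with 27 bases each and CACNA2D3 with 18.

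Among adhesion genes, the receptor phosphatase PTPRD, a presynaptic partner in synapse formation, had 4 microexons of 15, 12, 18 and 9 bases. Median shares there were 0.684, 0.850, 0.909 and 0.610%, with ratios of 33.3, 23.8, 63.7 and 31.8%. Its 9-base exon (chr9:35372117-35372125) ranged from 0.288 to 1.18% and was read in every library. PTPRF, a relative of PTPRD, had a 27-base exon at 1.43% (1.01 to 2.15%). The cell adhesion molecules NFASC and NRCAM each had an 18-base exon, at medians of 1.01 and 0.891%. LPHN3, a latrophilin, had a 27-base exon at 0.430% that spread from 0.114 to 1.46%.

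In the cytoskeletal gene DCTN1, the large dynactin subunit, 3 consecutive microexons of 24, 18 and 21 bases had median shares of 0.900, 1.21 and 1.47% and ratios of 45.9, 107 and 92.4%. CLASP2, which binds growing microtubule ends, had 18- and 24-base exons next to each other at 1.19 and 1.37%. KIF21A, a kinesin, had a 12-base exon at 0.663% and a 21-base exon at 0.297%. Of the signalling genes, PTK2B, the tyrosine kinase Pyk2, had a 25-base exon at 1.99% with a ratio of 146%. RAPGEF2, an activator of the small GTPase Rap, had a 24-base exon that stayed between 1.81 and 2.73%. Liprin genes PPFIA3 and PPFIA4 had 27-base exons at 2.43 and 2.39%. TNIK was at the other end, with a 24-base exon at 0.194%.

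In the nucleus, the 12-base exon of KDM1A (chr1:21703721-21703732) makes the neuronal form of the histone demethylase LSD1. Its share was 1.27 to 2.52% with a median of 1.94%, and its ratio to neighbours was 29.4%. PHF21A, a partner of KDM1A, had a 23-base exon at 0.352%. The transcription factors MEF2A, MEF2C and MEF2D had microexons of 24, 24 and 21 bases at 0.983, 1.54 and 1.32%. CPEB4, a regulator of translation, had its 24-base exon at 0.868% (0.396 to 1.83%).

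**Figure D2:**
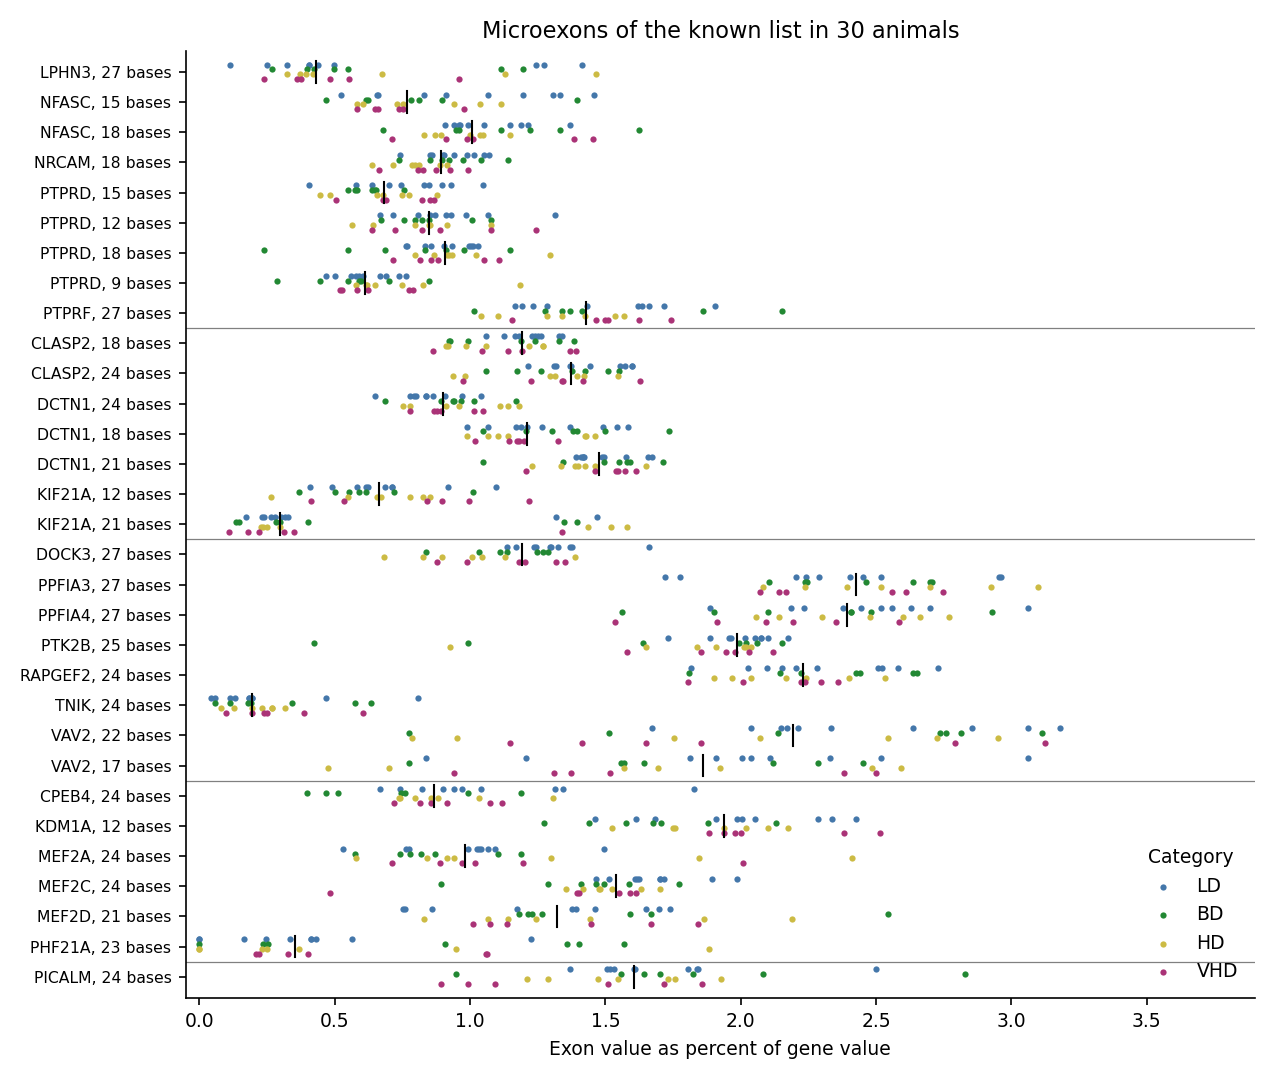
Share of the gene value (percent, horizontal axis) of 31 of the 36 tested microexons of the known list, 1 point per animal coloured by drinking category, with the median of 30 animals as a black bar; lines separate the roles. The categories overlap for every microexon shown. The 21-base exon of KIF21A falls into separate low and high clusters.

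SRRM4, PTBP2 and PTBP1 were read in every library. SRRM4 had a gene value of 925 to 1590 (median 1285), the neuronal repressor paralogue PTBP2 930.9 to 1382, and PTBP1, which is low in neurons, 253 to 361. The epithelial splicing factors stood at the low end, with ESRP2 at 11.6 to 45.3 and ESRP1 at 0 to 4.63 (median 0), too low to test. Of 37 listed regulators 30 were tested at the gene level. None differed by the limma test with Benjamini-Hochberg adjustment between VHD and LD, where 0% of 12935 genes did, and 0 had an unadjusted p under 0.05, against 3.5% of genes. Their median difference was 0.03 on the log2 scale, with 21 of 30 above 0. The VHD minus LD difference of SRRM4 was 0.002 ± 0.12 (SE) and that of PTBP1 0.03 ± 0.10. PTBP2 differed by 0.12 ± 0.09. In HD against LD the regulator PTBP2 was 0.19 ± 0.08 higher and HNRNPC 0.16 ± 0.06 higher. These were the 2 regulators below an unadjusted p of 0.05, where 12.5% of all genes were, and neither passed after adjustment (0.352 and 0.344, limma). The limma fits of BD, of all categories, of the trend and of the cohorts also called 0 regulators and 0% of genes. Below an unadjusted p of 0.05 were 0 of 30 regulators in BD (3.05% of genes) and in the trend (6.18%). There was 1 each over all categories (5.62%), over all cohorts (8.04%) and between cohorts 4 and 7a (9.15%).

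The question of the design is whether exon usage followed drinking. Usage is the log2 exon value minus the log2 gene value, and each difference was fitted with cohort in the model over 110181 exons. No microexon passed an adjusted p of 0.05 between VHD and LD, and neither did any other exon (0%, limma). Without adjustment 8 of 309 microexons (2.59%) fell below 0.05, against 3.62% of all exons. edgeR's quasi-likelihood test on whole reads put 13 there, against 4.11% of all exons. The median difference was 0.03 (log2) for microexons and 0.003 for all exons. Of the 309 estimates 267 lay within 0.5 of 0, at a median standard error of 0.30. Differences of that size could not be resolved for a typical microexon, and larger ones could be missed as well. For example, a 27-base exon of BTN2A1 at 0.63 ± 0.32 had an unadjusted p of 0.061 (limma). The 8 rose to 14, 15 or 16 when 1 library was left out (the second HD, the seventh HD or the fifth VHD animal, in that order). Over all exons those fits put 3.57, 3.7 and 4.35% below 0.05.

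SECISBP2L, a relative of a selenoprotein synthesis factor, had the smallest p of this comparison. Its 25-base exon (chr14:25314375-25314399) held 1.27 to 2.18% (median 1.99%) of the gene value in LD and 1.41 to 1.67% (median 1.60%) in VHD animals. All 6 VHD animals lay below the LD median, and the lowest animal was an LD one. The difference was -0.46 ± 0.13 (log2, SE, unadjusted p = 0.0015, adjusted p = 0.9998, limma). Over the categories scored in order of intake its slope was -0.16 ± 0.04 per step, again short of the adjusted threshold. With no cohort term the VHD difference was -0.28. PTPRB, a receptor phosphatase of blood vessels, had an 18-base exon at 0.927 to 1.57% in LD (median 1.18%) and 0.589 to 1.17% in VHD (median 0.874%), a difference of -0.73 ± 0.27. Summed endothelial markers were 390 to 524 in LD and 448 to 776 in VHD, and their part in this value was not tested. NARS2, a mitochondrial aminoacyl-tRNA synthetase, had a 27-base exon at -0.77 ± 0.28. On the higher side, the 25-base exon of SRGAP2, a regulator of dendritic spines, ran from 0.287 to 1.76% in LD (median 0.743%) and 0.636 to 2.29% in VHD (median 1.38%). Its difference was 0.94 ± 0.37, and 0.31 in a fit of only the LD and VHD animals. With cohort in the model, that value rests on the 3 LD and 2 VHD animals of cohort 7a. ZBTB8OS, of the tRNA splicing ligase complex, spread from 0 to 16.6% within LD alone (median 2.29%) and from 0.753 to 16.5% in VHD (median 12.2%). In each of these the categories overlapped, and no host gene differed after adjustment.

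Heavy drinkers gave more small p values. Between HD and LD 0 microexons and 0% of exons passed after adjustment, with 31 microexons (10%) below 0.05 without it, against 7.68% of all exons. By edgeR 29 were below 0.05, against 6.89% of all exons. Of the 31 by limma, 20 were higher in HD (6.47% of microexons, against 3.16% of exons) and 11 lower (3.56%, against 4.52%). DOCK3, a guanine nucleotide exchange factor of neurons, had the smallest p of any category comparison. Its 27-base exon (chr3:107221696-107221722) was at 1.14 to 1.66% in LD (median 1.30%) and 0.682 to 1.39% in HD (median 1.01%). The difference was -0.44 ± 0.11 (unadjusted p = 0.00042, adjusted p = 0.505, limma), and its gene value differed by 0.01 ± 0.05. FTSJ1, a tRNA methyltransferase, had a 26-base exon at 1.40 to 2.90% in LD and 2.60 to 8.84% in HD, a difference of 1.02 ± 0.31. SEPT5, a septin of synaptic vesicles, had an 11-base exon with a difference of 1.01 ± 0.37. Library numbers 1 to 8 in the labels held 4 of 7 HD but 1 of 10 LD animals. Without those libraries 15 microexons (4.85%) were below 0.05 in this comparison, against 3.94% of all exons, so the share over all exons was lower as well. The differences without them were -0.18 for DOCK3, 0.47 for FTSJ1 and 0.47 for SEPT5.

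Binge drinkers against low drinkers again gave 0 adjusted calls (0% of exons). Unadjusted, 17 microexons (5.5%) were below 0.05, near the 6.15% of all exons, and edgeR put 11 there, against 4.52%. Without the third LD or the sixth BD animal there were 26, against 7.72 and 6.69% of all exons. ANXA6, a calcium-dependent membrane-binding protein, had an 18-base exon at 0.0503 to 1.24% in LD (median 0.844%) and 0.769 to 1.46% in BD (median 1.25%), a difference of 1.15 ± 0.37. Without the third LD animal that difference was 0.74, and with edgeR 0.66. JAM2, a junction protein, had a 16-base exon at 0.57 ± 0.18. The 24-base exon of CPEB4 went from 0.667 to 1.83% in LD (median 0.957%) to 0.396 to 1.19% in BD (median 0.746%). That difference was -0.58 ± 0.20, with an adjusted p of 0.806 (limma). All 3 category comparisons share the LD animals. For the 36 known-list microexons the median differences were -0.08 in VHD, -0.10 in HD and -0.08 in BD, with 0, 2 and 2 below 0.05 unadjusted and 0 after adjustment over all exons. The test over all 4 categories had 20 microexons below 0.05 unadjusted (6.47%, against 5.32% of exons), led by DOCK3 and SECISBP2L. By edgeR there were 19, against 5.01% of exons. The trend over categories had 12 (3.88%, against 4.6%), and by edgeR 15, against 4.92%. In the 4-category test and the trend 0 passed by limma or edgeR.

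**Figure D3:**
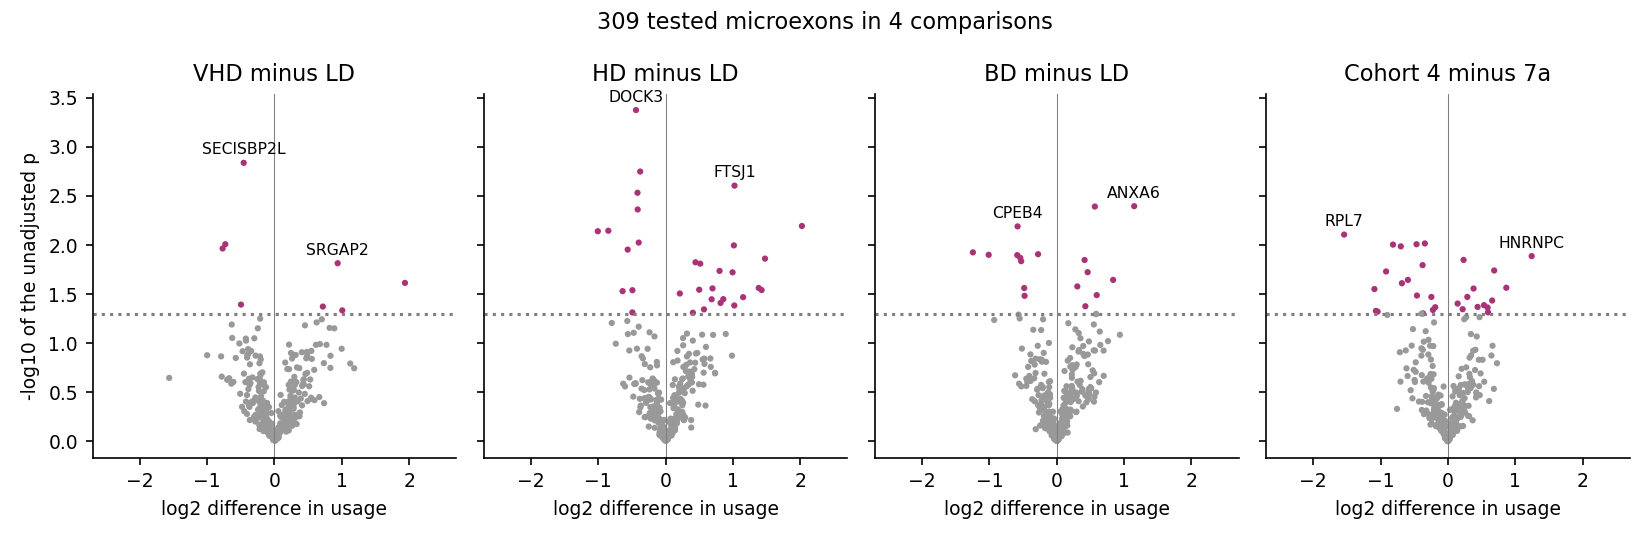
Difference in usage (log2, horizontal axis) against the -log10 of the unadjusted p for the 309 tested microexons in 4 comparisons; the dotted line marks an unadjusted p of 0.05, coloured points lie above it, and the leading microexon on each side is named. None passed after adjustment, and the numbers above the line are 8, 31, 17 and 30.

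The cohorts, which differ in labelled age, were compared with category in the model. Cohort 4, the oldest, and cohort 7a, the youngest, differed after adjustment in 0 microexons and 0% of exons. Unadjusted, 30 microexons (9.71%) fell below 0.05, against 5.24% of all exons, and edgeR put 17 there, against 4.59%. By limma 13 were higher in cohort 4 (4.21%, against 2.39%) and 17 lower (5.5%, against 2.84%). NRCAM, the neuronal adhesion molecule, had its 18-base exon (chr7:133309527-133309544) at 0.852 to 1.14% in cohort 4 (median 0.973%) and 0.638 to 0.990% in cohort 7a (median 0.848%). All 9 animals of cohort 4 lay above the median of cohort 7a. The difference was 0.23 ± 0.09 (adjusted p = 0.927, limma). PICALM, a clathrin assembly protein, had a 24-base exon at 1.51 to 2.83% in cohort 4 and 0.949 to 1.76% in cohort 7a, a difference of 0.38 ± 0.16. The exon of SRGAP2 differed by -0.82 ± 0.30 and the 24-base exon of PCBP4, an RNA-binding protein, by -0.47 ± 0.17. With the mean of the neighbouring exons as denominator the differences were 0.05 for NRCAM and -0.19 for PCBP4, while that of PICALM moved less. Cohort 4 had none of library numbers 1 to 8 and cohort 7a had 3. Without those libraries 14 microexons (4.53%) were below 0.05, against 4.43% of all exons, and the differences were 0.13 for NRCAM, 0.16 for PICALM and -1.27 for SRGAP2. Without the first BD animal there were 14 as well, against 4.32% of exons, and PICALM was at 0.22. The test over all cohorts had 23 microexons below 0.05 (7.44%, against 4.19%), and by edgeR 28, against 4.49%. The test for slopes over categories that differ between cohorts had 21 (6.8%, against 3.74%), and by edgeR 21, against 3.82%. None passed in either by limma or edgeR.

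Some microexons varied between animals far more than read sampling allows, in steps that crossed the categories. The spread of read counts over that of binomial sampling at 1 common share had a median of 1.35 for microexons and 1.32 for all exons. It exceeded 10 for 20 microexons (6.47%), for 4.17% of exons of 28 to 50 bases and for 1.88% of all exons. A step was then defined, after the values had been seen, as a gap of at least 0.75 on the log2 scale (1.68-fold) in the ordered usage, with 3 or more animals on each side. Among exons with a mean value of 20 or more, 12 of 128 microexons had a step (9.38%), against 0.404% of all exons. By length it was 4.59% at 28 to 50 bases, 0.958% at 51 to 100 bases and 0.155% above 100 and up to 200 bases. These are descriptions of shape with no test, and animals were not grouped by them for any comparison.

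The widest step was in MAPK8IP3, a scaffold that links kinesin to the JNK pathway. Its 12-base exon (chr16:1738812-1738823) held 1.42 to 2.62% of the gene value in 9 animals and 0 to 0.152% in the other 21. The 9 were 4 LD, 2 BD and 3 HD animals from all 4 cohorts. The exon on its lower-coordinate side stayed between 2.60 and 4.45%, while the 33-base exon on the other side ranged from 0.181 to 1.58%. KIF21A stepped in its 21-base exon (chr12:36950188-36950208), at 1.32 to 1.58% in 8 animals and 0.111 to 0.400% in 22. Those 8 were 2 LD, 2 BD, 3 HD and 1 VHD animals. Its 12-base exon did not share the step. PTPRA, a receptor phosphatase, split 11 to 19, with no animal between 0.407 and 1.32%. NTRK3, the receptor of neurotrophin-3, had 7 animals at 2.83 to 4.30% and 23 at 0.369 to 1.24%. NECAB1, a neuronal calcium-binding protein, had 7 at 2.64 to 4.00% and 23 at 0.433 to 1.28%.

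In ANKS1B, SIRPA and GRAMD1B the high state was the common one. ANKS1B, a postsynaptic scaffold, carried its 12-base exon (chr12:97965900-97965911) at 1.0003 to 4.59% in 26 animals and at 0.0893 to 0.264% in 4. SIRPA, a receptor that signals against engulfment, had 23 animals at 2.50% or more and 7 at 0.874% or less, with all 8 libraries numbered 1 to 8 among the 23. GRAMD1B, a sterol transfer protein, had 27 above and 3 below. The exon on chr14:82310538-82310563 of HNRNPC, an RNA-binding splicing factor, was at 4.00 to 5.56% in 11 animals and 0.458 to 1.71% in 19. The high animals were 7 of 9 in cohort 4 and 1 of 8 in cohort 7a, 0 of 6 in VHD and 5 of 7 in BD. None of the 8 libraries numbered 1 to 8 was among the high ones, and what part the number has in this step was not tested. Its neighbour on the higher-coordinate side varied 27.3-fold, and the other neighbour 1.93-fold.

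**Figure D4:**
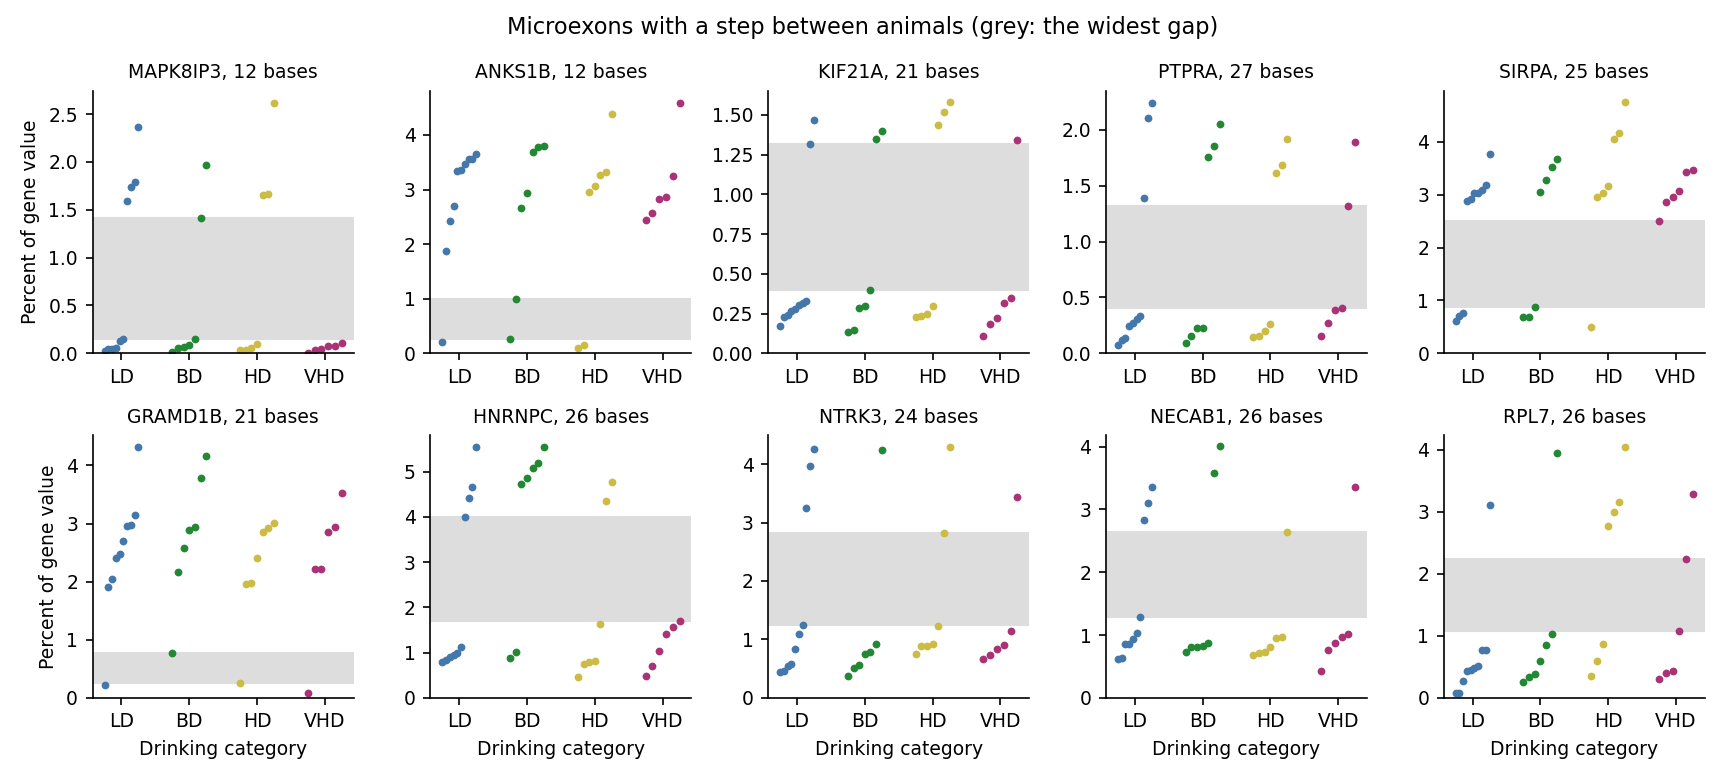
Share of the gene value (percent, vertical axis) of 10 of the 12 microexons with a step, 1 point per animal in order of value within each drinking category; the grey band is the widest gap. High and low animals occur in more than 1 category for every exon shown, and in MAPK8IP3 and HNRNPC no VHD animal lies above the band.

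The step of RPL7, which encodes a ribosomal protein, followed the library number in the labels instead. Its 26-base last exon held 2.24 to 4.04% of the gene value in the 8 libraries numbered 1 to 8 and 0.0738 to 1.07% in the other 22. What the number stands for is not given in the sources used here. Comparing numbers 1 to 8 with the rest, a comparison added after the values had been seen with category and cohort in the model, called 17 of 309 microexons (5.5%, limma adjusted p under 0.05), against 5.07% of all exons. There were 14 higher in numbers 1 to 8 (4.53%, against 2.15%) and 3 lower (0.971%, against 2.92%). Exons of 28 to 50 bases also leaned to higher values, with 152 of 3239 higher and 56 lower. Of the 30 tested first or last microexons 8 were called (26.7%), against 9.37% of all first or last exons. First or last exons of 28 to 50 bases were called in 36.8% (68 of 185), and those of 51 to 100 bases in 24.1%. Of internal microexons 9 of 279 were called (3.23%, against 4.33%). Of 8 microexons of ribosomal protein genes 5 were called, where 33.4% of all exons of such genes were. At 28 to 50 bases 25 of 34 exons of such genes were called (73.5%).

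UCHL1, an abundant neuronal deubiquitinase, had the smallest p. Its 12-base internal exon (chr4:40976422-40976433) held 3.05 to 4.33% (median 3.40%) in numbers 1 to 8, 1.39 to 2.01% in 9 to 16 and 0.745 to 1.53% in 17 to 32. The first set did not overlap the rest, and the difference was 1.38 ± 0.15 (adjusted p = 3.34e-07, limma). The neighbour on its lower-coordinate side held 0.651 to 1.90% in the other 22 libraries and 2.93 to 4.25% in numbers 1 to 8, and the other neighbour overlapped between the sets. ZMAT2, a spliceosome protein, had a 25-base end exon at 1.94 to 2.95% in numbers 1 to 8 and 0 to 1.07% in the others, a difference of 2.74 ± 0.29. End exons of RPL7 (2.28 ± 0.30) and RPL11 (2.301 ± 0.37) did not overlap between the sets either. RPL13A was higher by 1.94 ± 0.37 with overlap. Others that were higher were SLIT1, SEPT5, BSG, PCBP3, RNF5, CRIPT and ARFGAP1. With the mean of the neighbouring exons as denominator PCBP3 went from 0.94 to 0.07, SLIT1 from 0.50 to 0.18 and RNF5 from 0.81 to 0.51. SEPT5 and BSG moved less. The internal 27-base exons of OTOS (-0.66 ± 0.17) and FIP1L1 (-0.65 ± 0.17) were lower, and FIP1L1 was at -0.40 with that denominator. Among regulators U2AF1 was higher at the gene level by 0.64, KHDRBS1 by 0.27, SRSF11 by 0.20 and NOVA1 by 0.19, and U2AF2 differed by -0.26, so 5 of 30 (16.7%) passed where 15.5% of genes did.

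**Figure D5:**
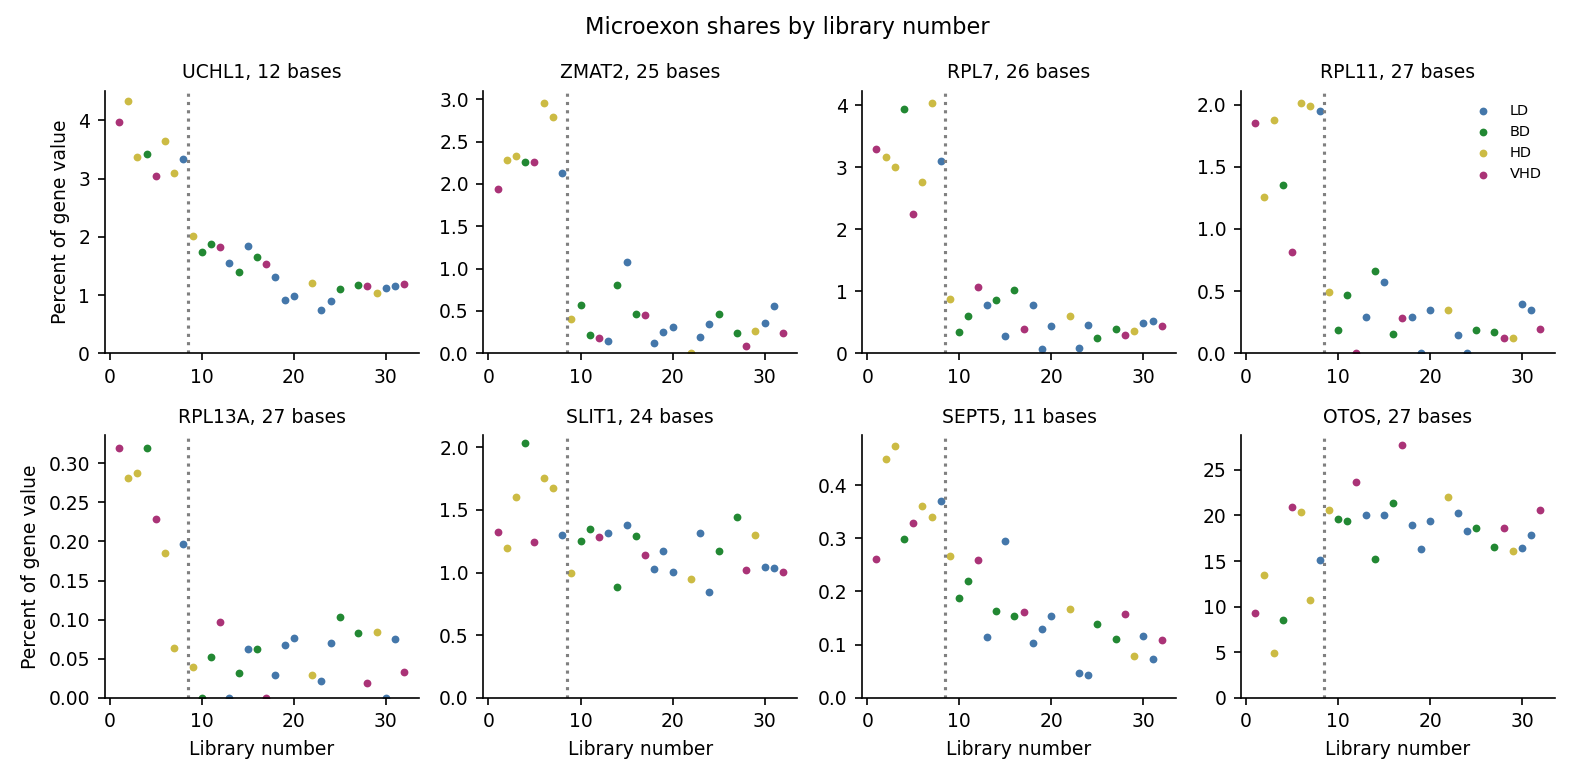
Share of the gene value (percent, vertical axis) against the library number of the labels for 8 microexons called between numbers 1 to 8 and the rest, 1 point per animal coloured by drinking category; the dotted line separates the sets. In UCHL1, ZMAT2, RPL7 and RPL11 all 8 points on the left lie above all 22 on the right, whatever the category.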

How the data were processed

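Per the labels' protocols, RNA of cortical area 32 was depleted of ribosomal RNA, made into stranded TruSeq libraries and sequenced on an Illumina HiSeq. The labels give 31 animals and 30 were deposited. The submitters' processing notes name CASAVA, FastQC, STAR 2.3.0e and edgeR. Neither build, annotation, counting method nor coordinate base was given in the sources used here. The deposited tables hold signal per gene (15521) and per exon (156345): read counts that the authors divided by an upper-quartile factor per library. Whole reads came back for 100% of values within 0.01, and gene reads equalled the sum of exon reads. Reads were not divided by length.

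Usage was log2(exon value + 1) minus log2(gene value + 1), so low exons have understated changes. It was fitted with limma 3.58.1 in R 4.3.3 (category and cohort, mean-trended prior variance, all 30 animals) on exons with 5 or more in at least 6 libraries, with Benjamini-Hochberg adjustment over 110181 exons. Gene levels were fitted likewise for genes of 10 or more in at least 6 libraries. The scripts were tested on simulated data. Python 3.11.15 and pandas 2.3.3 made the descriptions. Alternatives were edgeR 4.0.16 on whole reads, other pseudocounts, filters, denominators, covariates and sets of animals. Named microexons were every adjusted call, up to the 5 smallest p values per direction or comparison, the highest and lowest ratios, the shortest, and the tested ones of the known list. Those with a step were added after the values were seen. The members and lists were chosen with earlier results of these data known. Replicates are separate animals. Listed symbols found under no name in the tables were left out. A few microexons that the rules name are counted but not reported here. No sequence is printed, since no genome of the files' build was used here.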

Additional observations from a re-analysis of the deposited data

Results flagged for a closer look

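Within the groups of 4 to 10 animals behind the named microexons, 119 groups were checked for an animal far from the others, and 10 had one. Chance gives about 1 in 20 groups (5%). In VHD the lowest share of ZBTB8OS was 0.753% with the next animal at 10.6%, and the highest of ARHGAP21 was 1.29% with the next at 0.561%. In LD the lowest share of the 25-base exon of SECISBP2L was 1.27% (next 1.83%), and the highest of DOCK3 was 1.66% (next 1.38%). In BD the lowest share of ANXA6 was 0.769% (next 1.25%). Among cohorts, the highest share of ARHGAP21 in cohort 4 was 1.56% (next 0.486%) and that of PHF5A 16.1% (next 8.41%). The highest of HNRNPC in cohort 7a was 4.00% (next 1.40%). In cohort 5 the highest shares were 6.94% for AEBP2 (next 5.82%) and 2.29% for SRGAP2 (next 1.03%).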

How the results depend on the processing

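Under each alternative run, 0 microexons passed after adjustment in the category and cohort comparisons, and 0 regulators passed wherever that fit was run. The 17 of 309 microexons called between library numbers 1 to 8 and the rest became 11 of 160 with an exon minimum of 20. The count was 5 of 279 with the mean of the neighbouring exons as denominator. It was 28 with array weights and 27 of 309 with edgeR on the recovered reads. Leaving out 1 library at a time gave 10 to 21, the lowest without the sixth HD animal. Shares over all exons are not given beside these counts, so a change particular to microexons cannot be read from them. The gene value divided by its number of exons in place of the neighbours put the median level of microexons at 34.5%. A gene minimum of 500 left 235 members. The VHD minus LD difference of SRRM4 (0.002) turned to -0.14 with no cohort term. For named microexons, 857 estimates under other settings and 1576 with a library left out kept their direction and their side of the threshold. The other 28 and 74 kept their direction and lost the call, all between library numbers. Their cause was not tested. In the category and cohort comparisons none passed in any setting, so only direction and size could change there. Some sizes moved with the neighbours as denominator. PTPRB went from -0.73 to -0.40 (VHD minus LD), JAM2 from 0.57 to 0.34 (BD minus LD) and PCBP3 from 0.94 to 0.07 (library numbers).

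Counts at an unadjusted p under 0.05 moved more. VHD against LD went from 8 to 17 with no cohort term (4.71% of all exons) and 15 without the shallowest libraries (4.62%). It went to 18 with only both categories (4.06%) and 16 within cohort 7a (3.69%). Only cohort 7a held both categories, with 3 LD and 2 VHD animals. With cohort in the model, both of these fits take their difference from its animals and are not separate checks. The count over all cohorts of 23 went to 15 without LD animals numbered 1, 9 or 10 (3.86, 4.18 and 4.32% of all exons), the trend from 12 to 22 without the fifth VHD animal (6.04% of exons), and the differing slopes from 21 to 8 without the third HD animal (2.39%). Steps were found in 9 to 18 of the eligible microexons over the settings tried. The 9 of 122 came with the neighbours as denominator (0.477% of all exons), and the 18 of 128 with a gap of 0.5 (1.06%). With a mean value of at least 50 there were 5 of 47, against 0.432% of all exons. The gene value from the exon table, the fits without library numbers 1 to 8, their comparison and the step settings were added after seeing the data. No paired analysis was possible because replicate numbers only name animals in accession order. Tested microexons had a median of 8 to 22 reads per library, which limits single values.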
